A study of Mus musculus with 8 samples.

Results

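Phase II conjugation enzymes attach a water-soluble group to drugs, hormones, bile acids and reactive by-products so that these can leave the cell. The genes described here are the glutathione S-transferases (Gst), the UDP-glycosyltransferases (Ugt) and the cytosolic sulfotransferases (Sult), chosen by the pattern of their gene symbols among protein-coding genes with a probe set of their own. Of 30627 genes with such a probe set, 51 were members, namely 20 Gst, 10 Ugt and 21 Sult genes. RefSeq lists 64 protein-coding genes whose symbols match the pattern, and 13 of these had no single-gene probe set and were not analysed here. Those 13 were 9 genes of the Ugt1a locus, Ugt2a1 and Ugt2a2, which share 1 probe set, and Gsta1 and Gstp2, whose probe sets also name another gene.

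RNA came from whole livers of male C57BL/6 mice, all kept on a high fat diet for 13 weeks and all given 5 intraperitoneal injections. In the treated group, 4 livers, the injections carried anti-miR-128-3p, an inhibitor of the microRNA miR-128-3p. In the control group, also 4 livers, they carried a control that 1 label field calls vehicle. That field names miR-128-3p itself as the agent, whereas the sample titles and the series' design name its inhibitor, and the groups follow the titles. The age of the mice is not given in the labels. The titles number the mice within each group without saying that every array is a different animal, and where arrays were not separate mice the p-values measure only the spread between arrays.

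The microRNA that the inhibitor is directed against is shown because it defines the treatment. RefSeq (GRCm38.p6) places the same mature sequence at chr1:128202404-128202424 on the plus strand and at chr9:112118644-112118664 on the minus strand, and the capitals mark its seed, bases 2 to 8.
mmu-miR-128-3p: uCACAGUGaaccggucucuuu

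The 3 families differ in the group they transfer. Gst enzymes join glutathione to electrophiles, Ugt enzymes join a sugar, mostly glucuronic acid, to bilirubin, steroids and drugs, and Sult enzymes move sulfate from the donor PAPS to phenols, steroids and bile acids. The liver is a main site of all these reactions, and nuclear receptors and the stress regulator NRF2 set the level of many of these genes.

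Signals are log2 values, so a difference of 1 is a doubling, and differences are treated minus control with limma's standard error (SE). The 8 arrays had medians of 5.04 to 5.12 over all genes and correlated with one another at 0.992 to 0.996. The negative control probes, which match no mouse transcript, had medians of 4.32 to 4.48, and signals at or below that level were read as background. Of the 51 members, 35 lay above that level on every array, made up of 18 Gst, 10 Ugt and 7 Sult genes. Another 11 lay above it on no array, and these were Gstt4 and 10 Sult genes. Hepatocyte markers bore out the labelled tissue, with a mean over 7 markers of 13.00 to 13.11 in control livers and 12.98 to 13.19 in treated livers. Fewer cells of a type and less RNA per cell cannot be told apart in such whole-tissue samples.

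Between the treatment groups, no conjugation enzyme passed limma's test at an adjusted p of 0.05, and neither did any of the 30627 genes (percent called 0). The smallest adjusted p among the members was 0.571 (limma), for Gstk1, against 0.194 over all genes. At an unadjusted p under 0.05, 2 members were lower, Gstk1 and Gstt3, and 0 were higher, where 3.37% of all genes were lower and 4.26% higher, or 7.63% in either direction. The treated and control livers overlapped for each of the 51 members, so 0 members were without overlap, against 4.41% of all genes (2.52% higher and 1.89% lower). The counts of called members were thus near or below the background share. Of the 51 differences, 35 were below 0 and 16 above, with a median of -0.04, while over all genes 50.93% were below 0 and the median was -0.0017. Over the 19103 protein-coding genes, the class that the members belong to, 54.79% were below 0 and the median was -0.0078.

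The families differed in these descriptions. All 10 Ugt members were lower in treated livers, by a median of -0.22 and within -0.29 to -0.04. The Gst members were divided, with 9 higher and 11 lower and a median of -0.02. Of the Sult members 7 were higher and 14 lower, also with a median of -0.02. The median half-width of the 95% confidence interval was 0.34 for Ugt, 0.29 for Gst and 0.12 for Sult members, against 0.15 over all genes. The Sult value includes genes not above the negative controls on all arrays, and over the 7 that were above it was 0.34. Apart from Gstk1 and Gstt3, the interval of every member included 0, and the number of arrays limits the precision. Leaving out 1 liver at a time gave 1 to 5 members lower and 0 to 2 higher at an unadjusted p under 0.05. The highest count of 5 came without control 1 and comprised Gstk1, Gstt1, Gstt3, Sult1b1 and Ugt3a1.

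**Figure D1:**
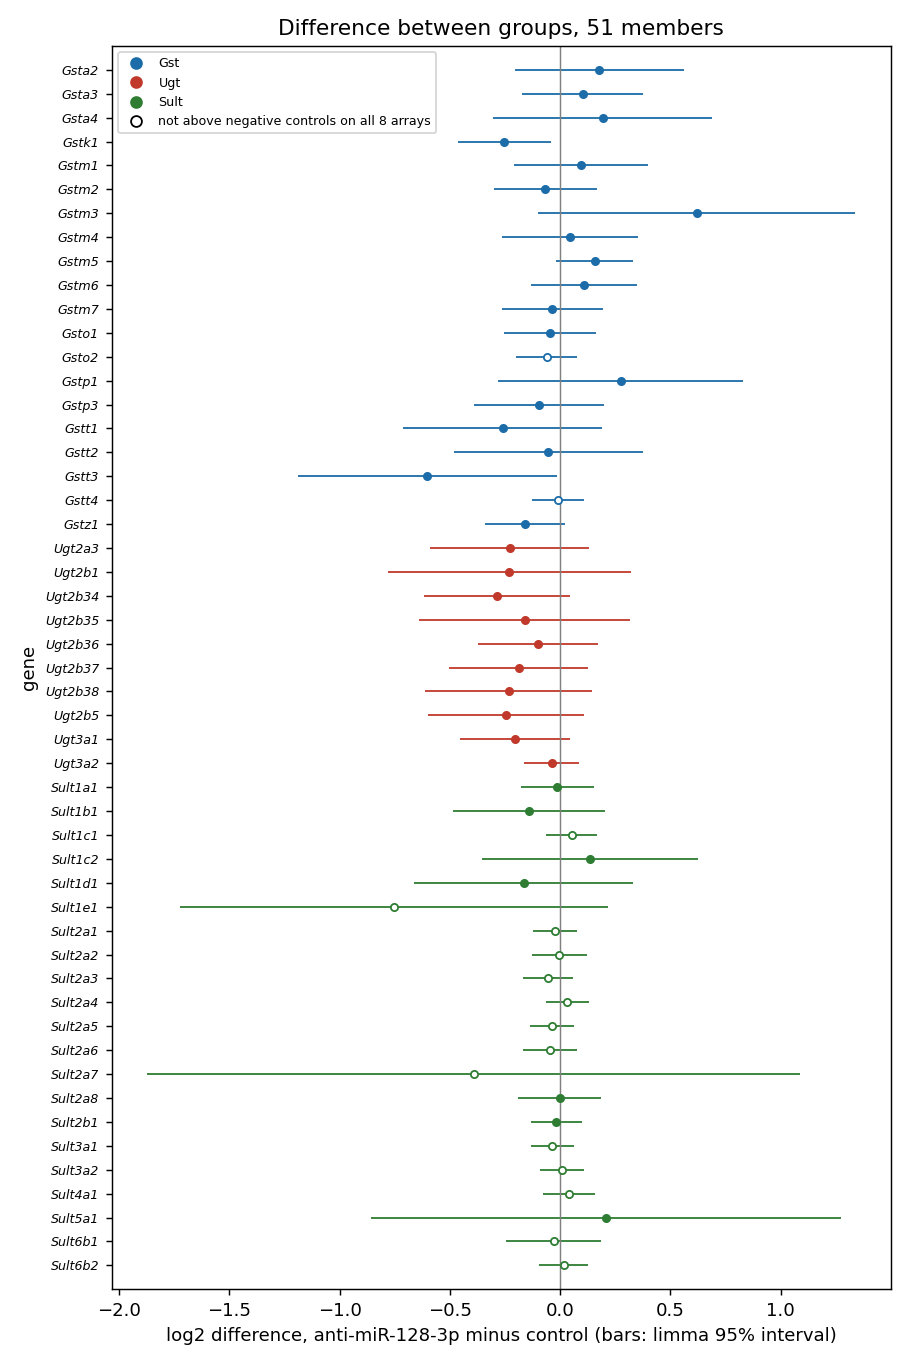
Differences between treated and control livers in log2 units for the 51 members, grouped by family, with points for limma estimates and bars for 95% confidence intervals. Open points are genes not above the negative controls on all 8 arrays. All 10 Ugt estimates lie below 0, and among all members only the intervals of Gstk1 and Gstt3 leave out 0.

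The Ugt members were 8 genes of the Ugt2 cluster on chromosome 5 and the pair Ugt3a1 and Ugt3a2. Ugt2 enzymes conjugate steroids, bile acids and drugs with glucuronic acid, and the Ugt3 pair uses other sugars. Sequence just before the start site is shown for 5 Ugt2 genes because 3 of them, Ugt2b5, Ugt2b37 and Ugt2b38, hold an identical block of 62 bases there. Capitals mark that block in those 3 genes and, in Ugt2b36, the last 22 bases of it, which that gene also holds. Ugt2b34 is given for contrast, as it holds no long run of the block. The stretches are the 100 bases upstream of the RefSeq start in GRCm38.p6, each on the minus strand, at chr5:87140341-87140440, chr5:87254789-87254888, chr5:87424204-87424303, chr5:87092556-87092655 and chr5:86906938-86907037 in the order printed.
Ugt2b5: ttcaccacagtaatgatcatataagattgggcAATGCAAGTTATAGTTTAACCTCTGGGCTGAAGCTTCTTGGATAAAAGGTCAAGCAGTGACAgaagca
Ugt2b37: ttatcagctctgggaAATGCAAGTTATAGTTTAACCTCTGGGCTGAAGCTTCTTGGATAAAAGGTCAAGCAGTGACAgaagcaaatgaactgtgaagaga
Ugt2b38: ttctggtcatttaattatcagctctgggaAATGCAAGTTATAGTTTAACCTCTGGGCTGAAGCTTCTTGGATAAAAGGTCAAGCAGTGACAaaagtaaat
Ugt2b36: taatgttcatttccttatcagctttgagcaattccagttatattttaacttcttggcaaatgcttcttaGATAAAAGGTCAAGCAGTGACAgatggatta
Ugt2b34: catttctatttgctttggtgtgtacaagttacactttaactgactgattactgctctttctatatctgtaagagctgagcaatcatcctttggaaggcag

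Over the 250 bases before the start, the 3 pairs formed by Ugt2b5, Ugt2b37 and Ugt2b38 were 72.6% to 84.8% identical in a global alignment. The other 25 pairs of Ugt2 members were 42.4% to 60.1% identical. The differences of the 3 similar genes were -0.25 ± 0.16 (SE) for Ugt2b5, -0.19 ± 0.14 for Ugt2b37 and -0.23 ± 0.17 for Ugt2b38. Ugt2a3 at -0.23 ± 0.16 and Ugt2b1 at -0.23 ± 0.24, which are not among the 3, lay within the same range. Whether the probes of 1 of these related genes also bind transcripts of another was not tested.

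Ugt2b34 had the difference farthest from 0 in its family. Its signal was 11.02, 11.14, 11.17 and 11.44 in control livers 1 to 4, and 10.62, 10.92, 11.31 and 10.77 in treated livers 1 to 4. Treated livers 1, 2 and 4 lay below every control, while treated 3 was above all controls but control 4. The difference was -0.29 ± 0.15 (95% interval -0.62 to 0.04; limma adjusted p = 0.711). Over the livers left out in turn it ranged from -0.19 without treated 1 to -0.42 without treated 3, where the limma adjusted p was 0.359.

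Ugt2b1 rested on single livers. Its signal was 11.11, 11.35, 11.57 and 12.03 in control livers and 11.42, 11.53, 11.54 and 10.64 in treated livers. Treated 4 was the lowest liver and control 4 the highest, and the other treated livers lay within the control range. The difference of -0.23 ± 0.24 (limma adjusted p = 0.889) became -0.02 without treated 4 and -0.06 without control 4. Ugt2b5 was measured at 10.54, 10.89, 10.83 and 11.02 in control livers and at 10.39, 10.94, 10.71 and 10.26 in treated livers, with treated 1 and treated 4 below all controls. Its difference moved from -0.25 to -0.14 without treated 4.

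Ugt2a3, Ugt2b35 and Ugt2b36 differed by -0.23 ± 0.16, -0.16 ± 0.21 and -0.10 ± 0.12. Ugt3a1, which transfers N-acetylglucosamine, differed by -0.20 ± 0.11 (limma adjusted p = 0.734). Ugt3a2 varied little among livers, with 10.92, 10.89, 10.93 and 11.03 in control livers and 10.94, 10.92, 10.97 and 10.79 in treated livers. Its difference was -0.04 ± 0.05, and without treated 4 it was 0.0009, the single Ugt value above 0 in that setting.

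The same livers recurred across the Ugt members. Control 4 was the highest of the 8 livers for 7 of the 10 genes, and treated 4 was the lowest for 8. Control 1 was the lowest control liver for 9 of the 10, and treated 2 the highest treated liver for 7. The mean signal over the 10 genes, after each gene was centred on its mean over all livers, was -0.15, 0.17, 0.05 and 0.32 in control livers and -0.25, 0.12, 0.10 and -0.36 in treated livers. The group means were 0.10 ± 0.20 and -0.10 ± 0.24 (SD, n = 4 each), and the groups overlapped. The family median was -0.11 without treated 4 and also -0.11 without control 4, and -0.30 without control 1. The 10 genes share the same 8 livers, so their common sign is not 10 separate observations.

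**Figure D2:**
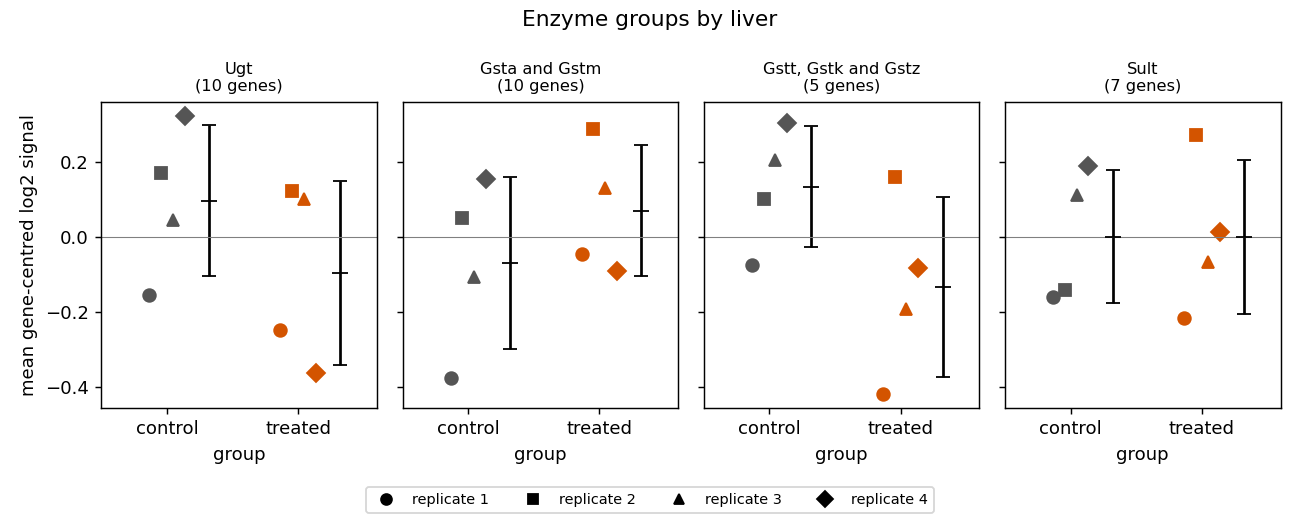
Mean centred log2 signal per liver for families and classes of conjugation enzymes, over members above the negative controls on all arrays, with the livers as points, marked by replicate number, and bars for group mean ± SD (n = 4). Treated and control livers overlap in every panel, and the Ugt values run from -0.36 in treated 4 to 0.32 in control 4.

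Among the Gst members, the theta, kappa, zeta and omega classes had only differences below 0. A grouping made after the values were seen leaves out the omega genes Gsto1 and Gsto2, at -0.05 and -0.06. Its 6 theta, kappa and zeta genes had a median of -0.21. They include Gstt4, at background on all arrays, whose difference of -0.01 was 0.0074 with array weights. The kappa enzyme Gstk1, found in mitochondria and peroxisomes, was measured at 10.91, 10.94, 10.94 and 11.04 in control livers and at 10.45, 10.94, 10.74 and 10.68 in treated livers. Treated livers 1, 3 and 4 lay below every control, and treated 2 lay within the control range. The difference was -0.25 ± 0.09 (95% interval -0.47 to -0.04), or 0.839-fold, with an unadjusted limma p of 0.0244 and an adjusted p of 0.571. Without treated 1 it was -0.17, and the unadjusted p was 0.0617 without control 4 and 0.0516 without treated 4.

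Gstt3, of the theta class, had the lowest difference of the Gst members. Its signal was 7.22, 7.10, 7.92 and 7.69 in control livers and 6.16, 7.20, 6.97 and 7.19 in treated livers. Treated 1 stood well below the other 7 livers, treated 3 was also below every control, and treated livers 2 and 4 lay between control livers 1 and 2. The difference was -0.60 ± 0.26 (95% interval -1.19 to -0.02), or 0.658-fold, with an unadjusted limma p of 0.0453 and an adjusted p of 0.639. Without treated 1 it was -0.36, with an unadjusted p of 0.0993, and the unadjusted p was also above 0.05 without control 3 (0.121), control 4 (0.102) or treated 3 (0.0657).

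Gstt1, which acts on small halogenated compounds, differed by -0.26 ± 0.20 (limma adjusted p = 0.832), and Gstt2 by -0.05 ± 0.19. Gstz1, the maleylacetoacetate isomerase of tyrosine breakdown, was measured at 11.26, 11.31, 11.20 and 11.33 in control livers and at 10.95, 11.32, 11.17 and 11.01 in treated livers. Treated livers 1, 3 and 4 lay below all controls, as for Gstk1. Its difference was -0.16 ± 0.08 (limma adjusted p = 0.708). Over the 5 genes of these classes that lay above the negative controls, treated 1 was the lowest liver for 4 and control 4 the highest for 3. The median over the 6 genes was -0.11 without treated 1 and -0.13 without control 4, and without treated 3 only 4 of the 6 were lower.

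The alpha and mu classes were also grouped after their values were seen. Several of their genes are known targets of NRF2. Of the 10 genes, 8 had a higher mean in treated than in control livers, and the median difference was 0.10. Gstm3 had the greatest difference above 0 of any member. Its signal was 8.45, 9.48, 8.98 and 9.52 in control livers and 9.19, 9.97, 10.43 and 9.32 in treated livers. Treated livers 2 and 3 lay above every control, and treated livers 1 and 4 fell among the controls. The difference was 0.62 ± 0.32 (95% interval -0.10 to 1.34), or 1.54-fold, with a limma adjusted p of 0.711. It was 0.40 without control 1 and 0.38 without treated 3.

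Gstm1 was measured at 11.78, 12.19, 12.09 and 12.25 in control livers and at 11.94, 12.37, 12.39 and 12.00 in treated livers. Its difference of 0.10 ± 0.13 was -0.0024 without control 1. Gstm5 differed by 0.16 ± 0.08 (limma adjusted p = 0.704), Gstm6 by 0.11 ± 0.11 and Gstm4 by 0.05 ± 0.14. Gstm2 and Gstm7 were the 2 genes on the lower side, at -0.07 ± 0.10 and -0.04 ± 0.10. The alpha genes Gsta2, Gsta3 and Gsta4 differed by 0.18 ± 0.17, 0.10 ± 0.12 and 0.19 ± 0.22, and Gsta4 is the form that detoxifies the lipid peroxidation product hydroxynonenal.

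Control 1 was the lowest of all 8 livers for 8 of the 10 alpha and mu genes. The centred mean over these genes was -0.37, 0.05, -0.11 and 0.15 in control livers and -0.05, 0.29, 0.13 and -0.09 in treated livers, or -0.07 ± 0.23 against 0.07 ± 0.17 (SD, n = 4 each). Without control 1, 5 of the 10 genes were higher and 5 lower, and the median was 0.01. The direction of the alpha and mu genes as a group therefore was not kept without control 1.

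Promoter windows from RefSeq (GRCm38.p6, 250 bases before to 50 after each start) were matched to 44 of the 51 members, which had 55 windows. The core of the antioxidant response element, the letters TGACNNNGC on either strand, which NRF2 is known to bind in many of its targets, was found in 3 of the 55, or 5.45%, against 12.39% of all 32851 windows. The 3 genes were Gsta3, Gstm5 and Gstm7, and the stretch around each match is shown so that it can be set beside their values, with the core in capitals. The stretches lie at chr1:21240444-21240492 on the plus strand, chr3:107895792-107895840 on the plus strand and chr3:107931715-107931763 on the minus strand.
Gsta3: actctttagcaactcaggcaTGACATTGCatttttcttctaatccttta
Gstm5: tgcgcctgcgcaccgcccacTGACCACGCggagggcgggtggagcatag
Gstm7: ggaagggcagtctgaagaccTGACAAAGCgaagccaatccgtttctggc

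The 3 genes with this core differed by 0.10, 0.16 and -0.04, so they did not share a direction. The core of the xenobiotic response element, the letters GCGTG on either strand, was in 10 of the 55 windows, or 18.18%, against 32.39% of all windows. In Gstm5 the matches of both cores overlap. Neither core was found in the 9 Ugt windows, and the HNF1 motif was in 0 member windows, against 0.01% of all windows, a share too low for a count of 0 to tell anything. A match is a description of the letters and not a measured site. Elements outside these windows, such as any farther upstream, would not be found, so a gene without a match may still have one.

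The pi class has few members in the mouse, and Gstp1 is known to be more abundant in male than in female liver. Gstp1 was measured at 12.46, 12.27, 12.01 and 12.90 in control livers and at 12.88, 13.08, 12.75 and 12.03 in treated livers. Treated livers 1 to 3 lay at the top with control 4, and treated 4 at the bottom with control 3. The difference was 0.27 ± 0.25 (limma adjusted p = 0.861) and ranged from 0.14 without control 3 or treated 2 to 0.49 without treated 4. Gstp3 differed by -0.10 ± 0.13. The omega genes Gsto1 and Gsto2, whose enzymes reduce dehydroascorbate, differed by -0.05 ± 0.09 and -0.06 ± 0.06, with Gsto2 above the negative controls on 2 arrays.

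**Figure D3:**
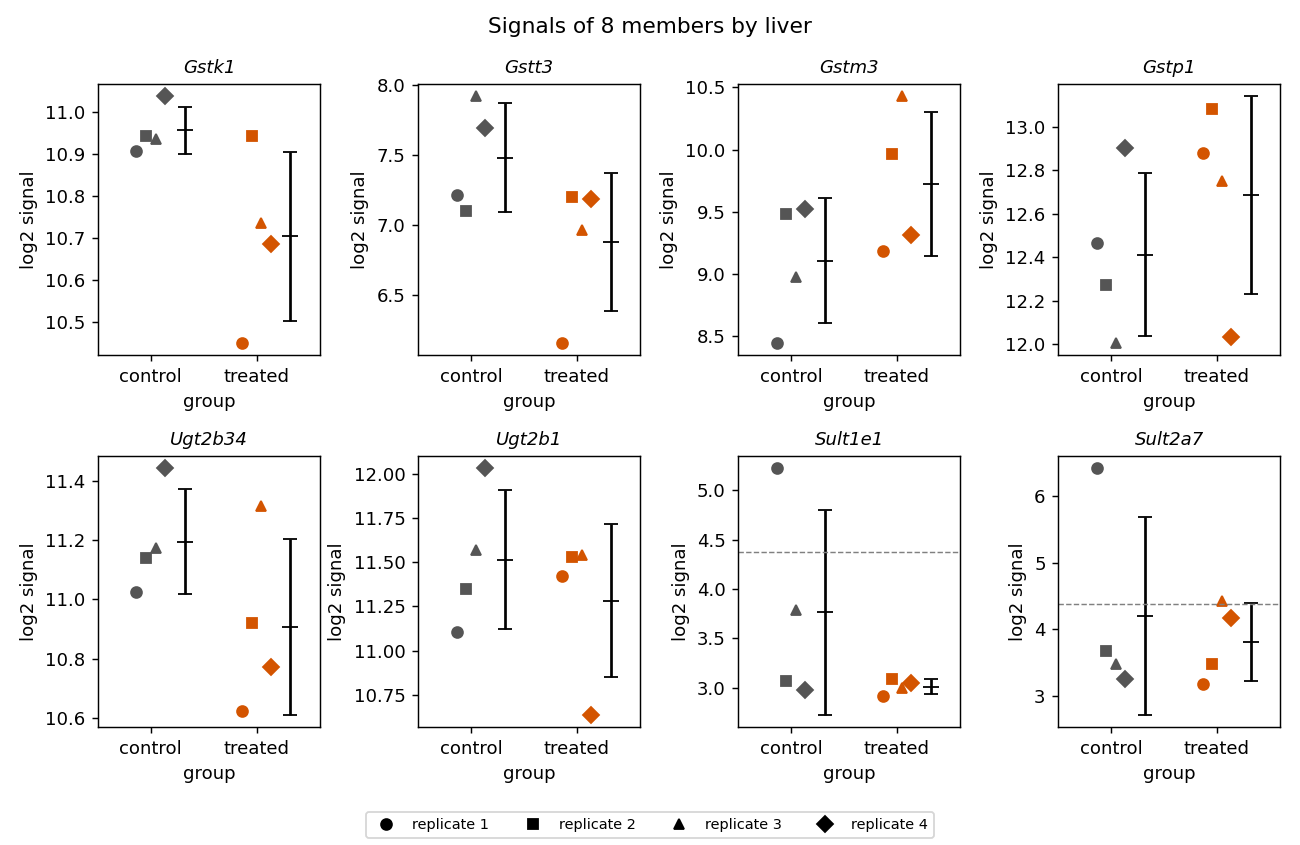
Log2 signal in each of the 8 livers for 8 members (Gstk1, Gstt3, Gstm3, Gstp1, Ugt2b34, Ugt2b1, Sult1e1 and Sult2a7), with bars for group mean ± SD (n = 4) and, for the Sult genes, a dashed line at the median of the negative controls. In Gstk1 treated livers 1, 3 and 4 lie below all controls, and in Sult1e1 control 1 at 5.23 stands above the rest.

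Among the sulfotransferases, the bright liver forms Sult2a8 and Sult1a1 had nearly the same mean in both groups. Sult2a8, which sulfates bile acids, was measured at 11.00, 10.97, 11.18 and 11.21 in control livers and at 11.08, 11.24, 11.12 and 10.91 in treated livers. Its difference was -0.0024 ± 0.08 (95% interval -0.19 to 0.19; limma adjusted p = 0.998). Sult1a1, the main phenol sulfotransferase, was measured at 10.14, 10.29, 10.42 and 10.15 in control livers and at 10.14, 10.25, 10.22 and 10.34 in treated livers. Its difference was -0.01 ± 0.07, with a 95% interval of -0.18 to 0.15. For Sult2a8 treated 2 lay above and treated 4 below every control, and for Sult1a1 all 4 treated livers lay within the control range.

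Sult1d1, which acts on catecholamines in the mouse, was measured at 8.90, 8.60, 9.31 and 9.28 in control livers and at 8.32, 8.93, 9.30 and 8.87 in treated livers. Treated 1 was the lowest liver, and the difference was -0.17 ± 0.22, or 0.01 without treated 1. Sult1b1, a thyroid hormone sulfotransferase, differed by -0.14 ± 0.15, and Sult1c2 by 0.14 ± 0.22. Sult2b1, which sulfates cholesterol, differed by -0.02 ± 0.05. Sult5a1 spread over 1.94 log2 units among the 8 livers, with control 4 at 8.84 and treated 2 at 8.66 as the highest, and its difference was 0.21 ± 0.47.

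Sult1e1 and Sult2a7 had their highest signal in control 1. Sult1e1, the estrogen sulfotransferase, was measured at 5.23, 3.07, 3.79 and 2.98 in control livers and at 2.92, 3.08, 3.00 and 3.05 in treated livers. Control 1 was the only liver above the negative controls. The difference of -0.75 ± 0.43 (limma adjusted p = 0.754) was -0.27 without control 1, and without control 4 it was -1.02 at an unadjusted p of 0.0435.

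Sult2a7, a hydroxysteroid sulfotransferase, was measured at 6.41, 3.67, 3.48 and 3.26 in control livers and at 3.18, 3.48, 4.43 and 4.17 in treated livers. It lay above the negative controls on 2 arrays. The difference was -0.39 ± 0.65 and changed sign to 0.34 without control 1. Control 1 also had the highest neutrophil marker level, a mean over 8 markers of 6.345. The other control livers had 4.29 to 4.57 and the treated livers 4.32 to 4.68. The part of the neutrophil level in the Sult1e1 and Sult2a7 values was not tested. The other Sult2a genes, both Sult3a genes and Sult6b2 were at background on all arrays, as was Sult1c1, and Sult4a1 and Sult6b1 were near it.

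**Figure D4:**
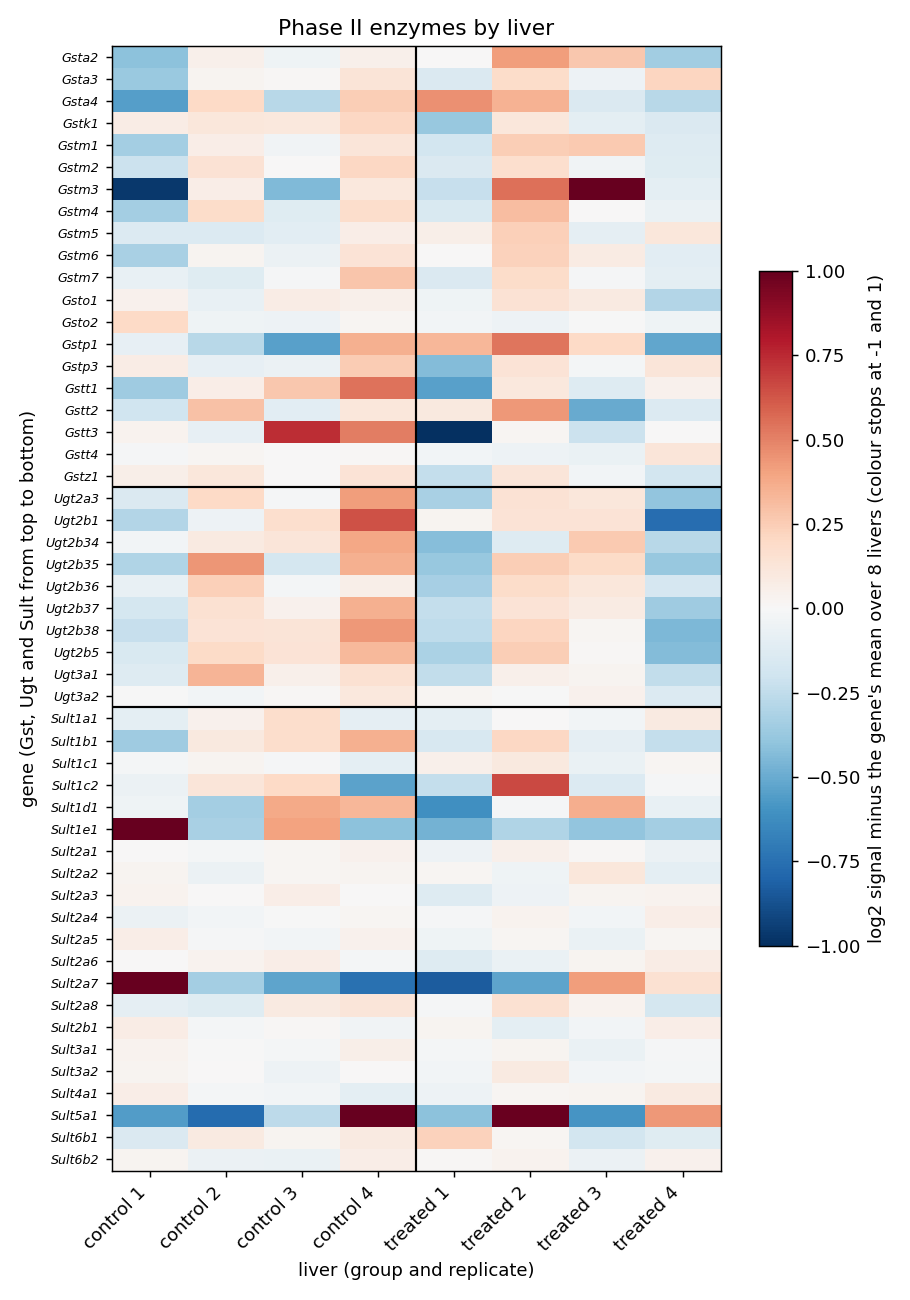
Signal of the 51 members in each of the 8 livers, as log2 difference from each gene's mean over all livers, with genes in rows by family and the colour scale ending at -1 and 1. The Ugt rows are low in treated 4, mostly low in treated 1 and control 1, and high in control 4. In the other treated livers the Ugt rows lie mostly above the gene mean. Most alpha and mu Gst rows are low in control 1.

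Genes linked to the supply or turnover of the 3 donor molecules were counted from gene lists, and not every listed gene makes a donor. The counts are to be read against 4.26% of all genes higher and 3.37% lower at an unadjusted p under 0.05. In the glutathione list, 0 of 10 measured genes were higher and 1 was lower at an unadjusted p under 0.05, with a median of -0.04. That gene was Oplah, the oxoprolinase of the glutathione cycle, at -0.34 ± 0.07 with no overlap between groups (limma adjusted p = 0.228). Gclc, the catalytic subunit of the first enzyme of glutathione synthesis, differed by -0.17 ± 0.16. In the list for UDP-glucuronic acid, the donor of Ugt2 enzymes, 0 of 6 were higher and 1 lower, with a median of -0.08. That gene was Entpd5, a nucleotidase of the endoplasmic reticulum, at -0.34 ± 0.12 (limma adjusted p = 0.569), and Ugdh, which makes the donor, differed by 0.05 ± 0.15.

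In the PAPS list, 0 of 9 were higher and 1 lower, with a median of -0.03. That gene was Suox, the sulfite oxidase, at -0.30 ± 0.12 (limma adjusted p = 0.611), and Papss2, a PAPS synthase, differed by -0.09 ± 0.32. Of 16 other conjugation enzymes 1 was higher, the acetyltransferase Nat2 at 0.24 ± 0.10, and 1 lower, the glycine conjugation enzyme Glyat at -0.28 ± 0.11. Of 8 exporters of conjugates 0 passed in either direction, with a median of -0.04.

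Of 14 measured regulators of these families, 1 was higher and 5 lower at an unadjusted p under 0.05, against 4.26% and 3.37% of all genes. None passed the adjusted threshold. The list was chosen with earlier results of these data known, so these counts are no test of an excess among regulators. Onecut1, the liver transcription factor HNF6, was measured at 9.08, 8.87, 9.67 and 9.84 in control livers and at 6.71, 7.13, 8.59 and 7.83 in treated livers. Every treated liver lay below every control, and the difference was -1.80 ± 0.39 (limma adjusted p = 0.239). Ahr, the receptor that binds the xenobiotic response element, was higher in every treated liver than in any control, at 0.38 ± 0.10 (limma adjusted p = 0.370). Nr1i2, the xenobiotic receptor PXR, differed by -0.33 ± 0.12 (limma adjusted p = 0.570), Hnf4a by -0.24 ± 0.10 and Nfe2l1 by -0.24 ± 0.09. Ppara completed the 5, at -0.17 ± 0.07. Nfe2l2, which encodes NRF2, differed by 0.02 ± 0.20, its inhibitor Keap1 by -0.02 ± 0.06, and Nr1i3, the receptor CAR, by -0.07 ± 0.26.

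Of 11 NRF2 targets outside the 3 families, 1 was higher and 0 lower at an unadjusted p under 0.05, with a median of -0.06. That gene, Cbr3, lay above the negative controls on 1 array. The next smallest p were those of Me1, at -0.50 ± 0.23 (limma adjusted p = 0.692), and Aox1, at -0.34 ± 0.22 (limma adjusted p = 0.797). The reductase Nqo1, a standard NRF2 target, differed by -0.06 ± 0.19. Of the 11 differences, 4 were above 0 and 7 below. Among sex-dependent liver genes, 0 of 7 female-high and 0 of 9 male-high genes passed in either direction, with medians of -0.04 and 0.0032. Of the 7 female-high genes, 4 were at background on all arrays, among them the members Sult3a1 and Sult2a1, so their median tells little.

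Among the marker lists, those of macrophages, neutrophils and sinusoidal endothelium had the medians farthest from 0, and the hepatocyte median was -0.01. All 8 macrophage markers were higher in treated livers, by a median of 0.61, with a mean level of 7.07 to 8.02 in control livers and 7.77 to 9.01 in treated livers. Of 8 sinusoidal endothelial markers 7 were lower, with a median of -0.25, and the levels were 7.55 to 8.07 and 7.47 to 7.87. Of 8 neutrophil markers 7 were lower, with a median of -0.31, and 3 of the 8 lay above the negative controls on every array. Their mean level was 6.345 in control 1, against 4.29 to 4.57 in the other control livers and 4.32 to 4.68 in treated livers. At an unadjusted p under 0.05 were 2 of the macrophage, 3 of the endothelial and 0 of the neutrophil markers, against 7.63% of all genes. None passed limma's adjusted threshold, and none was below the negative controls on all arrays. The 8 stellate markers went both ways, with Col1a1 at 1.62 and Col3a1 at 1.22 higher without overlap and Reln at -0.29 and Hgf at -0.28 lower at an unadjusted p under 0.05. The median was 0.02 over these 8, 0.06 over 7 lymphocyte markers and -0.02 over 5 cholangiocyte markers. The part of these cells in the differences of the conjugation enzymes was not tested.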

How the data were processed

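Liver RNA was hybridised to 8 Affymetrix arrays, and the deposited values are log2 signals that the authors made with RMA, per the submitters' processing notes. RMA corrects background, quantile-normalizes the arrays and summarises probes, and it draws the arrays' overall levels together, so a shift shared by most genes would not be seen. No label names the software version or genome build. Of 72688 rows, 32750 probe sets were listed by the platform annotation, 31080 named 1 gene after symbols were updated through RefSeq, and these gave 30627 genes. For genes with several probe sets, 357 in all, the brightest was kept.

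A two-sided moderated fit without covariates or a filter on dim genes was made over all genes with limma 3.58.1 (R 4.3.3) and Benjamini-Hochberg adjustment, and was tested on simulated data. Tables and plots used Python 3.11.15, pandas 2.3.3 and matplotlib 3.10.9. Members given in full were those with an unadjusted p under 0.05 or groups without overlap, the 3 brightest and the 2 with the greatest differences per family, and those with 1 liver far from its group. From each gene list up to 3 genes with the smallest p could be named, and always Nfe2l2, Nr1i2 and Nr1i3. Other members are given as counts and differences, and Col1a1, Col3a1, Reln, Hgf, Gclc, Ugdh, Papss2, Hnf4a, Ppara, Keap1 and Nqo1 were added after their values were seen. Members and lists were chosen with earlier results of these data known. The alternatives tried were array weights, trend with robust moderation, filters on dim genes, the mean of probe sets, renewed quantile normalization, centring, a replicate block and leaving out each liver.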

Additional observations from a re-analysis of the deposited data

Results flagged for a closer look

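In 4 of 102 groups of 4 livers, 1 liver stood far from the other 3 by Dixon's criterion, where chance alone gives about 5% of groups. For Ugt2b1, treated 4 was at 10.64 and the other treated livers at 11.42 to 11.54. For Sult2a7, control 1 was at 6.41 and the other control livers at 3.26 to 3.67. For Sult2a2, control 2 was at 3.31 and the others at 3.39 to 3.40, and for Sult3a2, treated 2 was at 2.87 and the others at 2.76 to 2.77. Neither of these last genes lay above the negative controls on any array.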

How the results depend on the processing

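No member passed the adjusted threshold in limma under any alternative, and with all 8 arrays kept the Ugt median stayed from -0.24 to -0.20 with 10 of 10 genes lower. The Gst median was 0.0049 over the 18 members at or above the median signal and below 0 in the other alternatives with 8 arrays. With the replicate block, 4 members were lower at an unadjusted p under 0.05 against 2, namely Gstk1, Gstt1, Gstt3 and Ugt3a1. Deviations of same-numbered livers correlated at -0.12 to -0.02, and those of differently numbered livers at -0.10 to 0.13. A weak pairing, or one limited to some genes, could not be seen in this way. Leaving out 1 liver gave 1 to 5 members lower, 0 to 2 higher and 0 to 1 genes past the adjusted threshold, the 1 being Irgm1 without control 4. The family medians then ranged from -0.05 to 0.02 for Gst, -0.30 to -0.11 for Ugt and -0.04 to -0.01 for Sult. Of the 17 members given in full, Sult1a1 reversed to 0.0059 with renewed quantile normalization and Sult3a2 to -0.0037 with centred arrays. Of the other members, Gstt4 reversed to 0.0074 with array weights, and several reversed when 1 liver was left out. The further reversals of members given in full came when 1 liver was left out, and the cause was not tested. The ranges were -0.0024 to 0.17 for Gstm1, -0.049 to 0.043 for Sult1a1, -0.31 to 0.012 for Sult1d1, -0.045 to 0.027 for Sult2a2, -0.71 to 0.34 for Sult2a7, -0.053 to 0.057 for Sult2a8, -0.020 to 0.019 for Sult3a2 and -0.060 to 0.0009 for Ugt3a2. With 4 arrays a group, half-widths of the members' unadjusted 95% intervals ran from 0.10 to 1.48. A difference smaller than its gene's half-width could not be told from 0. A larger one did not thereby pass the adjusted threshold. Gstk1, at -0.25 with a half-width of 0.21, had a limma adjusted p of 0.571.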
